A study of Mus musculus with 4 samples.

Results

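Among the 24087 genes listed for splenic Treg cells, 6 were long noncoding RNAs chosen by name: Malat1, Neat1, Kcnq1ot1, Tug1, Dleu2 and Flicr. All 6 were found in the table. A gene was tested when it reached 1 FPKM (fragments scaled to gene length and to library size) in at least 2 libraries, which 11399 genes and 5 of the 6 RNAs did. Kcnq1ot1 lay below that level and is given by its values. In KO cells Neat1 fell by 38.7% and was the only RNA of the 6 to pass the test, which 4.65% of all genes tested passed downward. Neat1 also passed under 9 of 12 other settings. The mean level of Malat1 was 2.97-fold lower, but its control libraries differed from each other by 2.13-fold. Tug1, Flicr and Kcnq1ot1 were also lower in both KO libraries than in both CTRL libraries, and Dleu2 was higher. Such orders were common, with 35.5% of all genes tested lower in both KO libraries and 29.0% higher.

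Long noncoding RNAs are transcripts that are not translated, and many of them stay in the nucleus. Malat1 gathers at nuclear speckles, bodies that hold splicing factors, and Neat1 is the RNA scaffold of paraspeckles, bodies that assemble on it while it is being transcribed. Kcnq1ot1 is an imprinted antisense RNA, made from the paternal chromosome, that silences neighbouring genes in cis with the help of Polycomb complexes. Tug1 is a conserved nuclear and cytoplasmic RNA with reported links to Polycomb repressive complex 2. Dleu2 is the host transcript of miR-15a and miR-16, microRNAs that restrain cell-cycle and survival genes. Flicr is spliced from the Foxp3 locus in Treg cells and was described as a negative modulator of Foxp3, the lineage factor of these cells.

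Treg cells were sorted as CD3+CD4+YFP+ cells from the spleen of C57BL/6 mice kept without challenge. The KO group, Foxp3Cre-YFPSetd2f/f, carried 2 floxed alleles of Setd2, the gene of the methyltransferase that trimethylates histone H3 at lysine 36. The CTRL group, Foxp3Cre-YFPSetd2f/+, consisted of littermates with 1 floxed allele. Both groups expressed Cre and YFP from the Foxp3 locus, so CTRL cells had also met Cre and had 1 Setd2 allele open to deletion. There were 2 libraries per group (CTRL 1, CTRL 2, KO 1 and KO 2), each from cells pooled from 2 mice, and p-values therefore measure only the spread between such pools. The study used mice of matched age and of both sexes, and the age and sex behind each library were not given in the sources used here.

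The 3′ ends matter for these data because the RNA was enriched on oligo(dT), which binds poly(A) tails. Malat1 and the long form of Neat1 have no such tail, since ribonuclease P cuts their 3′ ends and a triple helix of U-rich and A-rich tracts protects them. The short form of Neat1 is polyadenylated. These ends are printed from GENCODE vM21 transcripts on GRCm38, 70 bases each, with the U-rich tract TTTTGCTTTT, the A-rich tract AAAAGCAAAA and the poly(A) signal AATAAA in capitals.
Malat1-201, positions 6622 to 6691: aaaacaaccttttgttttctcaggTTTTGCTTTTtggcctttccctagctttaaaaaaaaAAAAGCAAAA
Neat1-201, positions 20702 to 20771: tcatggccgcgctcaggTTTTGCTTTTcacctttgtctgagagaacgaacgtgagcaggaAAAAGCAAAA
Neat1-202, positions 2935 to 3004: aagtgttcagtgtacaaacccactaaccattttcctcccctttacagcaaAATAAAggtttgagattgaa
The long Neat1 transcript ends on the A-rich tract, and Malat1-201 runs on for 292 annotated bases beyond it. The last 70 of these bases hold an AATAAA. The tracts searched were the last 10 bases of Neat1-201 and their reverse complement. The A-rich tract stood within the last 70 bases of 130 of 140988 annotated transcripts (0.0922%), the U-rich tract within those of 76 (0.0539%) and AATAAA within those of 38908 (27.6%), on the transcribed strand only. Both microRNAs of Dleu2 are printed from RefSeq (GRCm38.p6) because they share a seed, bases 2 to 8, in capitals.
mmu-miR-15a-5p, chr14:61632075-61632096, minus strand: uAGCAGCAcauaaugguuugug
mmu-miR-16-5p, chr14:61631936-61631957, minus strand: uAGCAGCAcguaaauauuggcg
Both mature sequences lie inside the Dleu2 gene and outside its exons, so the Dleu2 level measures neither of them. The annotated Mir16-1 gene, longer than its mature sequence, shares 13 bases with Dleu2 exons.

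Depth was similar between libraries, with 32803683 to 35460567 fragments behind the FPKM values. The cells matched their label, as Foxp3 was at 112 to 140 FPKM and the summed level of 4 Treg markers at 857 to 945 FPKM in every library. The CTRL libraries held 23.4 and 25.3 FPKM of Setd2, and the KO libraries 21.3 and 19.5 FPKM. Both KO values were the lower, but the difference did not pass the test (log2 fold change -0.24, adjusted p 0.0970), and the values cover the whole gene, not the floxed part. Markers of other cells were present and differed between libraries of 1 group. The sum of 5 myeloid markers was 198 FPKM in CTRL 1, 126 FPKM in CTRL 2, 235 FPKM in KO 1 and 100.4 FPKM in KO 2, that of 5 B cell markers 18.5 to 32.4 FPKM and that of 4 erythroid markers 2.21 to 20.02 FPKM. No marker gene of these lists passed the test. CTRL 1 stood apart at low levels, with 19100 genes above 0 against 15913 to 16410 in the other libraries.

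To see whether loss of Setd2 moved the nuclear RNAs together, KO was compared with CTRL over all 11399 genes by limma on log2(FPKM + 1). Of the 5 RNAs tested, 1 was lower and 0 were higher at adjusted p under 0.05, beside 4.65% of all genes tested that were lower and 5.1% that were higher. At unadjusted p under 0.05 all 5 were called, as were 34.7% of all genes tested. Their adjusted p-values ran from 0.0405 to 0.0818. For 5 of the 6 RNAs the KO values were both under the CTRL values, an order that 35.5% of all genes tested showed, and above them for Dleu2, as for 29.0% of all genes tested. The median log2 fold change of all genes tested was -0.022. List counts are from limma unless limma-voom on recovered reads is named, an alternative in which 8.92% of all genes tested were lower and 8.0% higher. In bulk RNA, fewer cells that express an RNA and less of it per cell cannot be told apart.

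**Figure D1:**
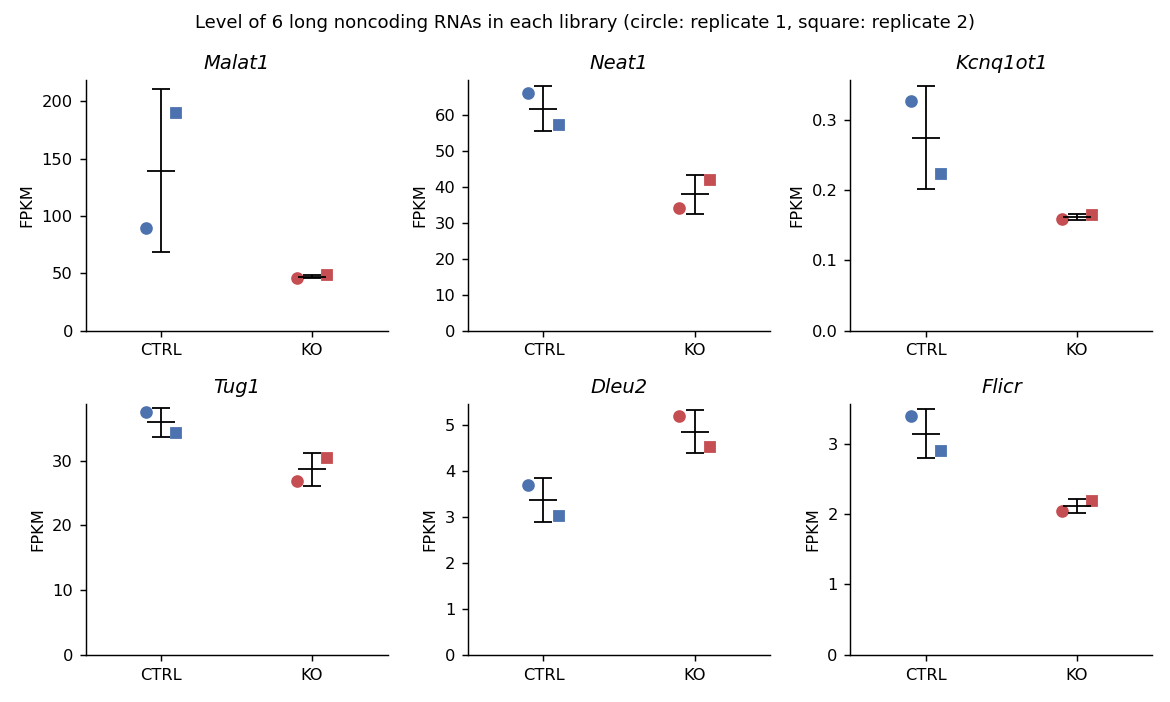
Level of each RNA in FPKM (vertical axes, each from 0) in the CTRL libraries (blue) and the KO libraries (red), with circles for replicate 1, squares for replicate 2, and black bars for the mean and SD of 2 libraries. KO points lie below CTRL points for 5 RNAs and above them for Dleu2, and the CTRL points of Malat1 are far apart (89.3 and 189.8 FPKM).

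Malat1 (ENSMUSG00000092341) is a single-exon gene at chr19:5795690-5802672 on the minus strand. It was at 89.3 FPKM in CTRL 1, 189.8 FPKM in CTRL 2, 46.0 FPKM in KO 1 and 48.1 FPKM in KO 2. The KO libraries were close to each other and both below the CTRL libraries, whereas CTRL 2 was far above CTRL 1. The reads behind these values numbered 20461, 45912, 11346 and 11911, so counting error was 0.467% to 0.939% of each value, small beside the gap between the CTRL libraries. Mean Malat1 was 139.6 ± 71.1 FPKM in CTRL and 47.1 ± 1.47 FPKM in KO (SD, n = 2 per group). The log2 fold change was -1.45 (standard error 0.34, 95% interval -2.33 to -0.57), and only 0.0526% of the genes tested had a lower one. Its adjusted p was 0.0597 and did not pass the threshold. Without CTRL 2 the log2 fold change was -0.91, and without CTRL 1 it was -1.99. The lower CTRL library was still 1.86-fold above the higher KO library. An exact permutation test on 2 against 2 libraries has 6 possible splits and cannot give a two-sided p under 0.333.

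Malat1 lacks a poly(A) tail, so other RNAs that oligo(dT) should miss were examined beside it. The summed level of 5 small nuclear and catalytic RNAs was 54.4 FPKM in CTRL 1, 7.53 FPKM in CTRL 2, 21.5 FPKM in KO 1 and 14.5 FPKM in KO 2. It was lowest in CTRL 2, the library in which Malat1 was highest, and did not separate the groups. Rn7sk, the scaffold RNA that holds the elongation factor P-TEFb inactive, was at 30.3, 1.57, 13.2 and 5.35 FPKM in the same order. Core and linker histone messages of the list, most of which end in a stem-loop, summed to 33.8 to 43.0 FPKM. None of the 10 genes of this list that were tested passed the threshold in either direction by limma or by limma-voom on recovered reads, 3 were higher and 1 lower at unadjusted p under 0.05, and their median log2 fold change was 0.36. The part that poly(A) selection or its efficiency had in the Malat1 values was not tested.

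Neat1 (ENSMUSG00000092274) lies at chr19:5824708-5845478, also on the minus strand and 22035 bases from Malat1. It was at 66.2 FPKM in CTRL 1, 57.4 FPKM in CTRL 2, 34.0 FPKM in KO 1 and 41.8 FPKM in KO 2. The groups did not overlap, and the lower CTRL library was 1.37-fold above the higher KO library. Mean Neat1 was 61.8 ± 6.27 FPKM in CTRL and fell to 37.9 ± 5.51 FPKM in KO (SD, n = 2 per group). On the log2 scale it fell by 0.69 (standard error 0.12, 95% interval -1.01 to -0.38), at an adjusted p of 0.0405. Leaving out any 1 library ended the call, with adjusted p from 0.0888 to 0.157 and log2 fold changes from -0.84 to -0.55. The call was also lost with all genes above 0 tested (adjusted p 0.0976), with the exon length trend removed (0.0513) and without the variance trend (0.0549). The length behind the FPKM of Neat1 was 3177 bases, near the 3004 bases of the polyadenylated Neat1-202 and far from the 20771 bases of Neat1-201. A value over that stretch cannot assign the fall to the short or to the long form. Between the CTRL libraries Neat1 was higher in CTRL 1, where the myeloid sum was also higher, and between the KO libraries it was higher in KO 2, where that sum was lower. The part of other cells in the Neat1 values was not tested.

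Level for level, Malat1 and Neat1 stood close to each other in 3 libraries and apart in 1. The ratio of Malat1 to Neat1, both per length, was 1.35 and 3.31 in CTRL 1 and CTRL 2 and 1.35 and 1.15 in KO 1 and KO 2. Relative to Neat1, CTRL 1 lay between both KO libraries, and CTRL 2 alone was far above them. The gene whose 4 values most resembled those of Neat1 was Zfp260, a zinc-finger gene, at a root mean square distance of 0.0176 on the centred log2(FPKM + 1) scale over 4 libraries, and the next was Zfp971 at 0.0293. For Malat1 no gene came nearer than Prrt1 at 0.304, and Ighv11-2, an immunoglobulin segment, was the next at 0.329.

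Proteins of the nuclear bodies in which Neat1 and Malat1 gather were then read from lists. Of 25 paraspeckle proteins, all tested, 0 were higher and 1 was lower, and their median log2 fold change was -0.074. The lower gene was Cirbp, a cold-inducible RNA-binding protein, which fell from 71.99 and 75.99 FPKM to 54.8 and 54.2 FPKM (log2 fold change -0.43, adjusted p 0.0346). Nono and Sfpq are essential for paraspeckles. Nono was at 183 and 180 FPKM in CTRL and 195 and 199 FPKM in KO, and Sfpq at 147 and 138 FPKM in CTRL and 169 and 153 FPKM in KO, neither difference passing the test. Of 25 nuclear speckle proteins, all tested, 0 were higher and 1 was lower by limma, with a median of -0.057. Limma-voom called 1 higher, Eif4a3, and 2 lower, Prpf4b and Srsf6. The gene lower by both tools was Srsf6, a serine and arginine rich splicing factor, at 126 and 125 FPKM in CTRL and 105 and 102 FPKM in KO (adjusted p 0.0422, log2 fold change -0.27). Srrm2, a core protein of speckles, was at 206 and 208 FPKM against 204 and 202 FPKM.

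Genes for proteins that cut or bind the Malat1 end were read in the same way. Of 12 genes for ribonuclease P subunits, ribonuclease Z and the triple-helix binding Mettl16, 11 were tested, 1 was higher and 1 lower by limma, and the median log2 fold change was -0.089. Limma-voom called 0 higher and 2 lower, Rpp14 and Rpp38, with 2 in each direction at unadjusted p under 0.05 by limma. Rpp38, a protein subunit of ribonuclease P, fell from 4.96 and 4.64 FPKM to 2.32 and 2.75 FPKM (log2 fold change -0.72, adjusted p 0.0356). Pop7, another subunit, rose from 16.9 and 15.6 FPKM to 21.1 and 21.3 FPKM (log2 fold change 0.36, adjusted p 0.0424). Rpph1, the catalytic RNA of ribonuclease P, was at 20.4, 4.09, 4.36 and 6.42 FPKM in CTRL 1, CTRL 2, KO 1 and KO 2, with the groups overlapping.

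Kcnq1ot1 (ENSMUSG00000101609) spans chr7:143203458-143296549 on the minus strand, antisense to Kcnq1. It was at 0.326 FPKM in CTRL 1, 0.223 FPKM in CTRL 2, 0.159 FPKM in KO 1 and 0.165 FPKM in KO 2. These low values rest on 893, 644, 468 and 488 reads, because they are spread over 83437 bases. Mean Kcnq1ot1 was 0.275 ± 0.0731 FPKM in CTRL and 0.162 ± 0.0043 FPKM in KO (SD, n = 2 per group), and the groups did not overlap. The ratio of KO to CTRL means was 0.590, a difference that log2(FPKM + 1) compresses to -0.13 and log2(FPKM + 0.1) to -0.50. Limma-voom on the recovered reads of the 13813 genes with at least 10 reads in 2 libraries, a setting chosen after seeing the data, gave a log2 fold change of -0.73 (standard error 0.19, adjusted p 0.0529). This missed the threshold, which 6.91% of the genes passed downward in that setting. CTRL 1, the library with the highest Kcnq1ot1, also held 2431 genes seen in no other library, at a median of 0.0364 FPKM. What low-level signal of that kind contributed to its value was not tested.

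The tested genes around Kcnq1ot1 showed no common direction. Of 12 genes of the domain 6 were tested, 0 were higher and 1 was lower, and the median log2 fold change was 0.011. Cdkn1c, a cyclin-dependent kinase inhibitor silenced in cis by Kcnq1ot1 in many tissues, had 3.124 and 4.52 FPKM in CTRL libraries against 5.31 and 9.37 FPKM in KO libraries. Both KO values were the higher, but they differed from each other and the difference did not pass the test (log2 fold change 0.76, standard error 0.27, adjusted p 0.123). Tspan32, a tetraspanin gene, fell from 141 and 149 FPKM to 114 and 118 FPKM (log2 fold change -0.32, adjusted p 0.0406). Slc22a18 and Phlda2, imprinted genes of the same cluster, stayed under 1 FPKM in every library and were not tested. Slc22a18 was at 0.112 and 0.142 FPKM in CTRL and 0.296 and 0.381 FPKM in KO. Phlda2 was at 0.372 and 0.431 FPKM in CTRL and 0.653 and 0.459 FPKM in KO. Both were thus higher in both KO libraries, like Cdkn1c, an order that 29.0% of all genes tested showed. Kcnq1, Ascl2, Th and Trpm5 also stayed under 1 FPKM, and their groups did not separate.

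Tug1 (ENSMUSG00000056579) lies at chr11:3639785-3649673 on the minus strand. It was at 37.5 FPKM in CTRL 1, 34.3 FPKM in CTRL 2, 26.8 FPKM in KO 1 and 30.4 FPKM in KO 2. The groups did not overlap, with means of 35.9 ± 2.23 FPKM in CTRL and 28.6 ± 2.56 FPKM in KO (SD, n = 2 per group). The log2 fold change was -0.32 (standard error 0.087) and the adjusted p 0.0753, which did not pass. Exons of Tug1 share 483 bases with Morc2a on the other strand, 4.96% of its exon bases, and the use of strand in counting was not stated. Morc2a was at 13.8, 13.3, 11.6 and 12.6 FPKM in the same order (log2 fold change -0.15). Rad1 had the pattern nearest to that of Tug1 (root mean square distance 0.00945 over 4 libraries), followed by Mettl14 at 0.0121, a subunit of the m6A methyltransferase. Subunits of Polycomb repressive complex 2 gave 0 calls by limma among 11 genes tested, in either direction, with a median log2 fold change of 0.16. Without adjustment 4 were higher and 2 lower at p under 0.05, and limma-voom called 1 higher, Ezh2, and 1 lower, Ezh1. Ezh2, its methyltransferase, was at 32.7 and 26.5 FPKM in CTRL and 39.4 and 38.9 FPKM in KO (adjusted p 0.0734, log2 fold change 0.40), and its paralogue Ezh1 at 24.6 and 24.2 FPKM against 19.3 and 20.6 FPKM (-0.28, adjusted p 0.0577).

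Dleu2 (ENSMUSG00000097589), at chr14:61602839-61682373 on the minus strand, was the only RNA of the 6 with a higher level in KO. It was at 3.71 FPKM in CTRL 1, 3.03 FPKM in CTRL 2, 5.20 FPKM in KO 1 and 4.53 FPKM in KO 2, from 206, 178, 311 and 272 reads. The groups did not overlap, but counting error alone was 5.67% to 7.495% of each value. The means were 3.37 ± 0.476 FPKM in CTRL and 4.86 ± 0.475 FPKM in KO (SD, n = 2 per group). The difference, 0.43 on the log2 scale with a standard error of 0.12, did not pass at an adjusted p of 0.0818. The value was taken over 1694 bases, while GENCODE lists 11334 exon bases for the gene. Trim13, a ubiquitin ligase gene on the other strand, overlaps the annotated span of Dleu2 but shares no exon bases with it. Its level was 3.66 and 4.45 FPKM in CTRL and 4.03 and 3.57 FPKM in KO, so its groups overlapped. Kcnmb4, a potassium channel subunit gene, and Unc93b1, which carries nucleic acid sensing Toll-like receptors to endosomes, had the nearest patterns (0.0178 and 0.0179).

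The mature microRNAs inside Dleu2 were not measured, and the genes that make or answer to them were read from lists. The genes Mir15a and Mir16-1 reached at most 0.674 and 0.305 FPKM in any library. Of 8 microRNA processing genes, all tested, 0 were higher and 2 were lower by limma, with a median log2 fold change of -0.050, and limma-voom added Ago3 to the lower genes. Dicer1, which cuts precursors to mature microRNAs, fell from 15.0 and 15.5 FPKM to 11.1 and 11.5 FPKM (log2 fold change -0.40, adjusted p 0.0378). Ago1, an Argonaute protein that loads them, fell from 14.1 and 14.6 FPKM to 10.9 and 10.7 FPKM (-0.38, adjusted p 0.0404). The called genes are long, with 9851 bases behind Dicer1, 7065 behind Ago1 and 7635 behind Ago3. Ago2, at 8031 bases, was not called (-0.044). Of all tested genes of 6500 bases or more, 76.2% had negative values, and the part of length here was not tested. Of 10 reported targets of the seed AGCAGCA shared by miR-15a and miR-16, all tested, 1 was lower and 1 higher by limma, with a median of 0.084. Limma-voom called 3 higher, Ccne1, Cdc25a and Wee1, and 1 lower. Both KO values were above both CTRL values for 6 of the 10 and below them for 1. Of all genes tested, 29.0% had them above and 35.5% below. Bcl2, the antiapoptotic gene, fell from 36.2 and 35.3 FPKM to 19.4 and 21.9 FPKM (log2 fold change -0.77, adjusted p 0.0306). Ccne1, cyclin E1, rose from 7.40 and 6.97 FPKM to 10.5 and 12.0 FPKM (0.58, adjusted p 0.0375).

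Flicr (ENSMUSG00000039545) lies at chrX:7573600-7581027 on the plus strand, and the annotated Foxp3 gene starts 44 bases downstream of its start. It was at 3.39 FPKM in CTRL 1, 2.90 FPKM in CTRL 2, 2.04 FPKM in KO 1 and 2.19 FPKM in KO 2, from 384, 347, 249 and 268 reads. Both KO libraries were below both CTRL libraries, with means of 3.14 ± 0.345 and 2.11 ± 0.103 FPKM (SD, n = 2 per group). The log2 fold change was -0.41 (standard error 0.11) and the adjusted p 0.0772, short of the threshold. Flicr shares 853 exon bases with Foxp3 on the same strand and 310 with Ppp1r3f on the other strand, together 25.0% of its exon bases, so reads there are uncertain between these genes.

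Foxp3 itself was at 120.6 FPKM in CTRL 1, 139.8 FPKM in CTRL 2, 111.6 FPKM in KO 1 and 119.2 FPKM in KO 2. KO 2 lay only just below CTRL 1, and the difference did not pass the test (log2 fold change -0.17, adjusted p 0.238). Flicr amounted to 2.81% and 2.07% of Foxp3 in CTRL 1 and CTRL 2 and to 1.83% in each KO library, both levels per length. The share was lower in KO, but CTRL 2 was nearer to the KO libraries than to CTRL 1. Taco1 and Rbm12b2 had the patterns nearest to Flicr, at 0.0102 and 0.0108 over 4 libraries.

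**Figure D2:**
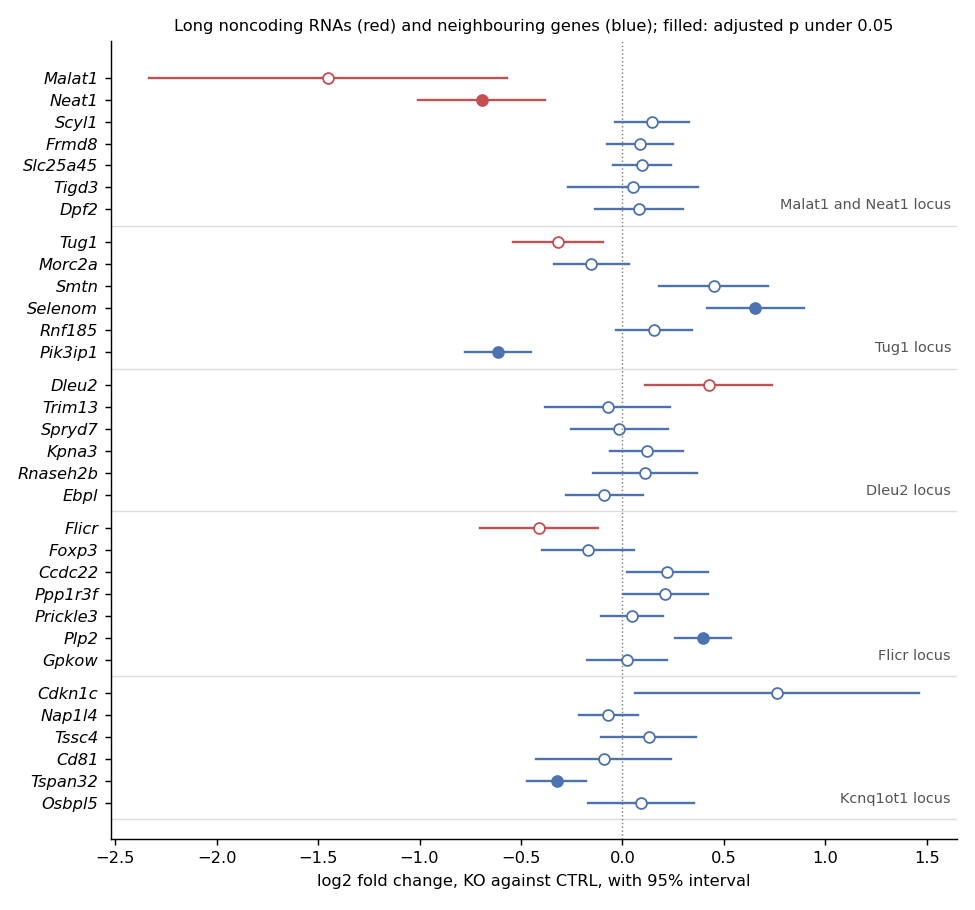
Log2 fold change of KO against CTRL (horizontal axis, log2(FPKM + 1) scale) with its 95% interval for the 5 RNAs tested (red) and the tested genes around each locus (blue), with filled points for adjusted p under 0.05. The intervals of Malat1 and Neat1 lie wholly below 0, and those of the 5 genes around them include 0.

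Around Malat1 and Neat1, 5 of 6 neighbours were tested and none passed the threshold by limma or limma-voom or had an unadjusted p under 0.05. Their log2 fold changes were 0.052 to 0.14, all of the opposite sign to both RNAs. Frmd8, one of these, was at 65.1, 70.9, 72.6 and 71.8 FPKM in CTRL 1, CTRL 2, KO 1 and KO 2, while Neat1 went from 102% and 80.9% of its level in CTRL to 46.8% and 58.2% in KO. Around Tug1, Selenom, a selenoprotein gene, rose from 2.55 and 2.42 FPKM to 4.42 and 4.56 FPKM (log2 fold change 0.66, adjusted p 0.0351), and Pik3ip1, an inhibitor of PI3 kinase signalling in T cells, fell from 26.6 and 25.7 FPKM to 17.2 and 16.3 FPKM (-0.61, adjusted p 0.0306). Smtn, the smoothelin gene, was at 2.17 and 1.98 FPKM in CTRL and 3.33 and 3.06 FPKM in KO (0.45, adjusted p 0.0591) and was called by limma-voom. Around Dleu2 none of 5 tested genes passed by either tool or had an unadjusted p under 0.05, with log2 fold changes of -0.090 to 0.12. Around Flicr, Plp2 rose from 86.7 and 88.3 FPKM to 113 and 118 FPKM (log2 fold change 0.40, adjusted p 0.0351), the only call among 6 tested. Over the 21 neighbours tested outside the Kcnq1 domain, 2 were higher and 1 lower by limma and 3 were higher and 1 lower by limma-voom, with a median of 0.087. At unadjusted p under 0.05 by limma 5 were higher and 1 lower.

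Whether the lower levels were shared with other long noncoding RNAs was read from a list and from the annotation. Of 41 other named long noncoding RNAs, which include Rn7sk, Rmrp, Rpph1 and Terc of the list without a poly(A) tail, 32 were matched and 19 tested, of which 0 were higher and 1 was lower, with a median log2 fold change of -0.24. The lower RNA was Epb41l4aos, at 32.2 and 32.9 FPKM in CTRL and 26.2 and 25.9 FPKM in KO (-0.31, adjusted p 0.0406). The count moved with the tool, and limma-voom called 6 lower, Airn, Gas5, Norad, Snhg1, Snhg8 and Xist, and 1 higher, Morrbid, but not Epb41l4aos. Airn, an imprinted antisense RNA like Kcnq1ot1, was at 1.74, 1.85, 0.893 and 1.04 FPKM in CTRL 1, CTRL 2, KO 1 and KO 2. Xist, which silences the inactive X chromosome of females, was at 29.1, 37.3, 23.4 and 23.3 FPKM. The sex of the mice behind each library was not given, and its part in the Xist values was not tested. Morrbid, which restrains the death gene Bcl2l11, was at 1.78, 1.45, 2.57 and 2.86 FPKM. Snhg1, the most abundant, was at 178, 144, 116 and 114 FPKM (adjusted p 0.0555), and Gas5, a host of small nucleolar RNAs, at 105, 90.9, 78.3 and 73.4 FPKM (adjusted p 0.0605). Zfas1, another such host, was at 56.5, 59.2, 59.1 and 58.6 FPKM. Among all 216 tested genes that GENCODE types as long noncoding, 10 were lower (4.63%) and 3 higher (1.39%), beside 4.65% and 5.1% of all genes tested. Their median was -0.13, and 46.8% had both KO libraries below both CTRL libraries, beside 35.5% of all genes tested.

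**Figure D3:**
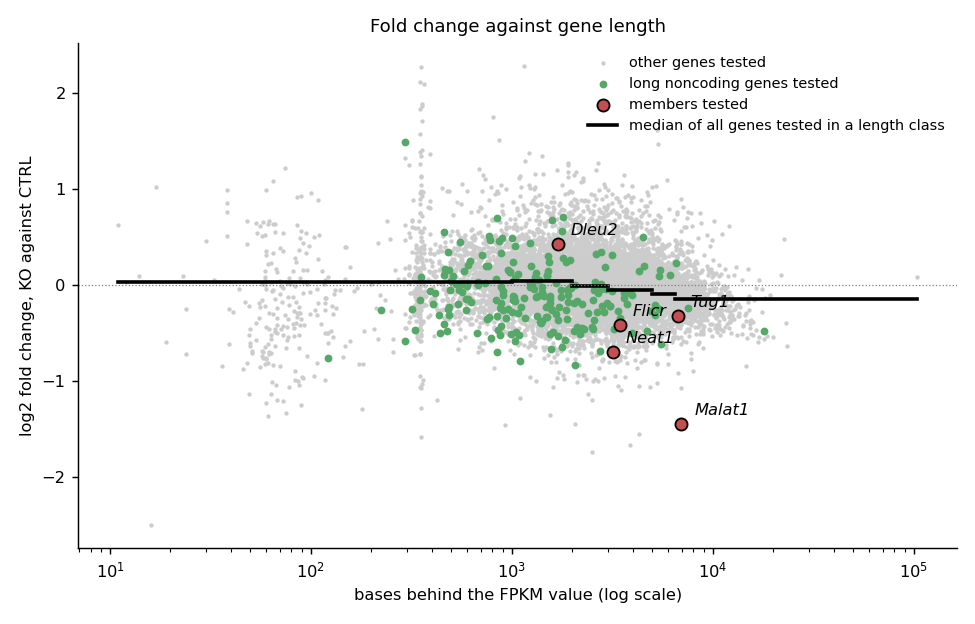
Log2 fold change of KO against CTRL (vertical axis) against the gene length behind each FPKM value (horizontal log axis, bases) for genes tested, with long noncoding genes in green, the 5 RNAs tested in red, and the median of each length class as a black line. The medians run from 0.035 in the shortest class to -0.14 in the longest, and Malat1 lies far below its class.

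Longer genes as a whole lay lower in KO, and several of the 6 RNAs are long. Genes under 1000 bases, 1460 in number, had a median log2 fold change of 0.035, against -0.14 for the 823 genes of 6500 bases or more, where 76.2% of values were negative. Tug1, at 6675 bases, was at -0.32, and Malat1, at 6982 bases, at -1.45, against that median. With a trend on length removed from each library, the log2 fold change was -1.36 for Malat1, -0.68 for Neat1, -0.23 for Tug1, 0.39 for Dleu2 and -0.38 for Flicr. Leaving out the 6 RNAs, the median of the other long noncoding genes was -0.067 in 76 against 0.042 in 1384 genes under 1000 bases, -0.13 in 107 against 0.020 in 5137 genes of 1000 to 3000 bases, and -0.19 in 25 against -0.058 in 3843 genes of 3000 to 6500 bases. Only 3 such genes were longer. The part of length in the single values was not tested beyond this.

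**Figure D4:**
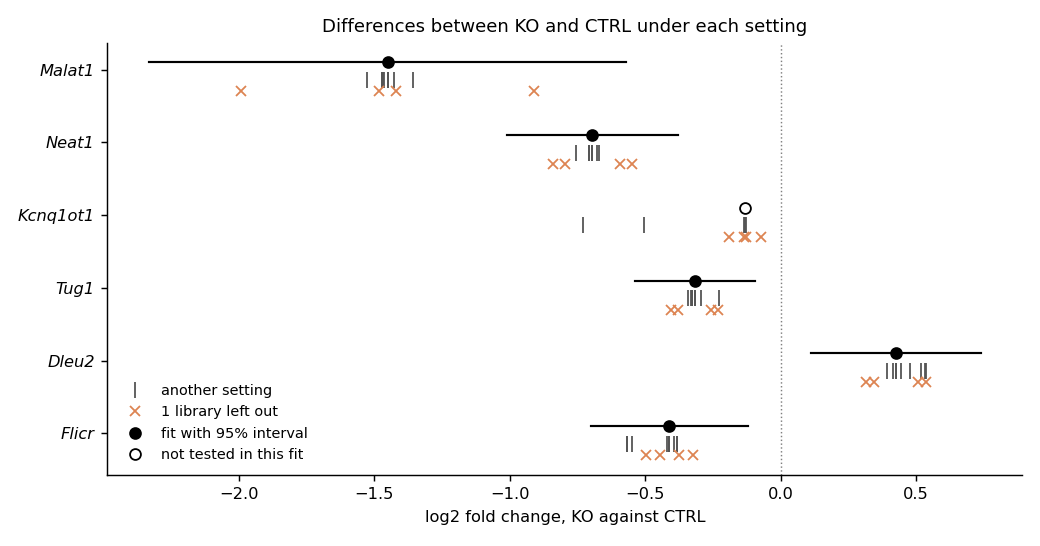
Log2 fold change of KO against CTRL (horizontal axis) for each RNA in the reported fit (black point with 95% interval, open for Kcnq1ot1, which was not tested), under other settings (grey bars) and with 1 library left out (orange crosses). No point crosses 0, the crosses of Malat1 run from -1.99 to -0.91, and Kcnq1ot1 moves with the scale, to -0.73 on reads.

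The sign of each of the 6 RNAs was the same under every setting tried and with each library left out, while the side of the threshold on which they fell varied. Malat1 passed under 4 of 12 other settings, including limma-voom on recovered reads (log2 fold change -1.47, adjusted p 0.0303), and Neat1 under 9 of 12. Tug1 passed under 2 of 12, and Dleu2 and Flicr under 1 of 11 each. With any 1 library left out, none of the 5 RNAs tested passed, and only 0 to 1 of all genes tested passed in each direction.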

How the data were processed

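RNA-seq was measured in 4 libraries of splenic Treg cells, 2 CTRL and 2 KO. Per the labels and the methods, the authors enriched RNA with oligo(dT), sequenced 150 bp read pairs, mapped them to mm10 (GRCm38) with HISAT2 2.2.1, counted with featureCounts 2.0.1 and compared groups with edgeR 3.34.0. The deposited values used here are FPKM made by the authors. Annotation version, gene lengths, strand setting and treatment of multi-mapped reads were not given in the sources used here. The columns named WT were taken as CTRL by their numbers.

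Each gene's FPKM values were whole multiples of 1 read's worth in all libraries for 19887 of 19888 genes above 0 (tolerance 0.001). This gave the reads behind each value, the gene length used, and totals of 30749905 to 33497691 recovered reads per library, which are lower bounds. Counting errors, in percent, cover counting only, since reads carried no molecular identifiers, while 95% intervals of fold changes are limma's, from the spread between libraries. Locus positions came from GENCODE vM21, which annotated 24021 of the 24087 rows.

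KO was compared with CTRL by limma 3.58.1 (R 4.3.3) on log2(FPKM + 1), using eBayes moderation with a trend in mean level, two-sided, with Benjamini-Hochberg adjustment over the 11399 genes that reached 1 FPKM in 2 or more libraries. The threshold was an adjusted p of 0.05. Fold changes on this scale understate those of low genes. A count test was not the main one, as the values are not counts. The 6 RNAs and all lists were chosen with earlier results of these data known. Named genes were the 6 RNAs, Setd2, list genes past the threshold or among the most abundant of their list, neighbours of each locus, and the 2 genes of nearest pattern per tested RNA. Single genes outside that rule (Srrm2, Zfas1, Ezh1, Rpph1, genes called only by limma-voom and RNAs without a tail) were named after their values were seen. The 13 mitochondrial messages of another list were not used here.

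Alternatives were other filters, a pseudocount of 0.1, rescaling (median ratio, equal sum, quantile), changed variance models, the replicate number as a block, removal of a length trend, limma-voom on recovered reads, and each library left out. A second limma-voom filter of 10 reads was added after seeing the data. In 20 simulations of reads for 11261 genes, 200 genes were changed by 1 on the log2 scale. Of the changed genes 97.9% were called, and 11.4% of calls fell in unchanged genes. This false share is above the level set by the adjusted p threshold, which also bears on single calls such as Neat1. Neither rate carries over directly to the real data, where 581 genes were called higher and 530 lower. The share of changed genes called does not cover genes with a wide spread between libraries, as Malat1, at -1.45, did not pass.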

Additional observations from a re-analysis of the deposited data

How the results depend on the processing

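With 2 libraries per group, depth was not the limit for Malat1, Neat1 and Tug1, and the spread between libraries was. Past the threshold there came Malat1 with a mean FPKM above 5 as filter (log2 fold change -1.45, adjusted p 0.0464), with the replicate block (-1.45, 0.0133), with limma-voom (-1.47, 0.0303) and with its added filter (-1.47, 0.0301), Tug1 with both voom fits (-0.33, 0.0464 and -0.33, 0.0483), Dleu2 with the block (0.43, 0.0465) and Flicr with the first voom fit (-0.57, 0.0459). Neat1 lost its call without the variance trend (-0.69), with the length trend removed (-0.68) and over all genes above 0 (-0.69). Kcnq1ot1 moved to -0.50 with a pseudocount of 0.1 and to -0.73 with the added voom fit. The causes were not tested. Leaving out each library gave -1.99 to -0.91 for Malat1, -0.84 to -0.55 for Neat1, -0.19 to -0.074 for Kcnq1ot1, -0.41 to -0.23 for Tug1, 0.31 to 0.54 for Dleu2 and -0.50 to -0.32 for Flicr.

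Genes higher and lower in KO numbered 581 and 530 as reported, 0 and 0 with all genes above 0 tested (2212 and 2251 at unadjusted p under 0.05), 968 and 805 with the replicate block, 288 and 228 with the length trend removed, 912 and 1017 with limma-voom, 931 and 954 with its added filter, 315 higher without the variance trend, and 0 to 1 in each direction with a library left out. The median of other long noncoding RNAs ran from -0.31 to -0.17 with a library left out, that of paraspeckle proteins from -0.11 to -0.024 (-0.035 with the length trend removed), speckle proteins from -0.10 to -0.039, Polycomb genes from 0.098 to 0.17, the Kcnq1 domain from -0.027 to 0.062 and microRNA processing from -0.11 to -0.051. Replicate numbers pair libraries only by number (correlation of deviations across genes: Pearson 0.34, Spearman 0.055), so the block is given here only.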
